A study of Mus musculus with 2 samples.

Results

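Transcription factors that pattern the mesoderm and endoderm of the gastrula were examined in primordial germ cells (PGCs) of mouse embryos at embryonic day 9.5. The set was chosen by gene symbol and holds 10 genes: T, Eomes, Mesp1, Tbx6, Mixl1, Gata6, Sox17, Foxa2, Hand1 and Snai1. Of these, 7 had a row among the 18877 gene symbols of the deposited table, and expression of the 3 others, Tbx6, Sox17 and Snai1, was not analysed here. Both RNA-seq libraries, replicate 1 and replicate 2, belong to 1 group, untreated C57BL6 PGCs taken from the embryo with an antibody to SSEA1, a carbohydrate antigen of the PGC surface. No dissection is given on the sample labels, whereas the methods describe gonads of female embryos, and SSEA1 alone or together with CD61 as the sorting antigen. The replicates are described as biological, and the number of embryos behind each is not given in the sources used here. Values are TPM (a relative transcript level, corrected for gene length and summing to the same total in each library), and the SD is that of both replicates.

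At gastrulation, Nodal, Wnt and bone morphogenetic protein (BMP) signals induce these factors in epiblast cells that enter the primitive streak. The T-box proteins T and Eomes act first, together with the homeobox protein Mixl1, and are followed by Mesp1, Tbx6 and Hand1 in mesoderm and by Sox17, Foxa2 and Gata6 in endoderm. The zinc finger protein Snai1 represses E-cadherin as cells leave the epithelium. Mouse PGCs arise from the same posterior epiblast, where T is known to take part in switching on germ line genes, and they then shut down the somatic mesodermal programme. By embryonic day 9.5, PGCs have left the streak and migrate along the hindgut.

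The 7 measured factors were all low. None reached a TPM of 1 in both replicates, compared with 11329 of all 18877 genes (60%). None had a mean TPM of at least 1 either, compared with 68.3% of all genes. All 7 were below the median gene of their library, which was at 2.71 TPM in replicate 1 and 2.61 TPM in replicate 2. On the log2(TPM + 1) scale the replicates gave medians of 0.06 and 0.18 over the 7 factors (mean 0.12 ± 0.0793, SD, n = 2), against 1.89 and 1.85 over all genes. The difference between both medians was -1.75 ± 0.107 (SD, n = 2). In bulk samples, fewer cells with a transcript and less of it per cell cannot be told apart.

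The number of reads behind each value sets how far these levels can be read. Reads were recovered from the deposited TPM with annotated gene lengths (15912470 reads in replicate 1 and 5458687 in replicate 2), and replicate 1 was thus the deeper library. The 7 factors together held 94 reads in replicate 1 and 24 reads in replicate 2, and Gata6 alone held 85.1% and 58.3% of these. The other 6 each had fewer than 10 reads in both libraries. A value of 0 was taken to allow up to 3 reads, and intervals are exact 95% Poisson intervals. These limits and intervals describe counting error alone, because PCR copies were not marked by molecular identifiers.

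**Figure D1:**
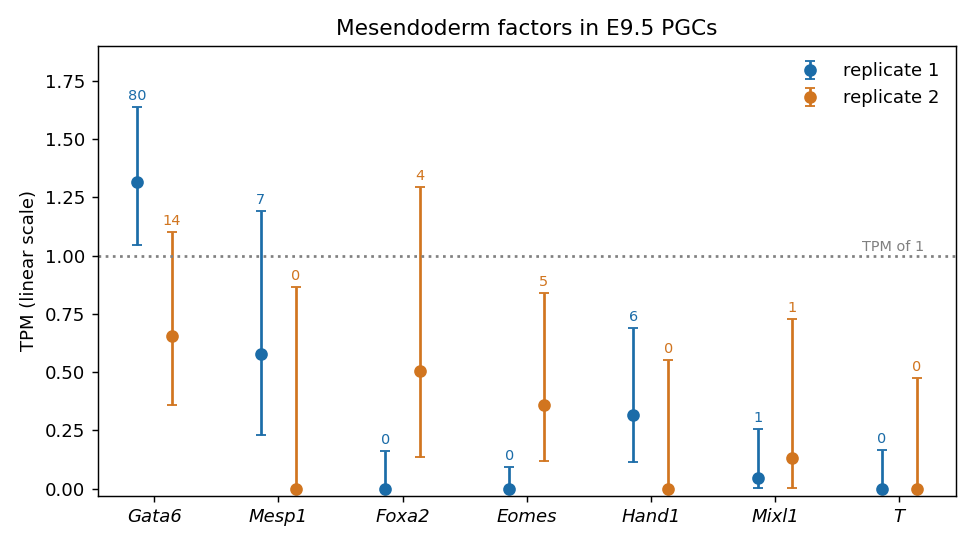
TPM (linear axis) of the 7 factors in replicate 1 (blue) and replicate 2 (orange), ordered by mean. Points are the deposited values, bars are exact 95% Poisson intervals and numbers are recovered reads: Gata6 in replicate 1, at 1.32 TPM, is the only point above the dotted line at a TPM of 1.

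Of the T-box factors, T, also called Brachyury, was listed at 0 TPM in replicate 1 and at 0 TPM in replicate 2. T (ENSMUSG00000062327.10, chromosome 17, 8434423 to 8442496 on the plus strand of GRCm38) marks the primitive streak, nascent mesoderm and notochord. It was the only one of the 7 with no read in either library, a state shared by 7.81% of all genes. A count of 0 allows up to 0.136 TPM in replicate 1 and up to 0.388 TPM in replicate 2. Its transcripts were thus not detectable at this depth.

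Eomes (ENSMUSG00000032446.14, chromosome 9, 118478212 to 118486132, plus strand), which is needed for definitive endoderm and for the first mesoderm, was listed at 0 TPM in replicate 1 and at 0.360 TPM in replicate 2. The value in replicate 2 rested on 5 reads (interval 0.117 to 0.840 TPM). The 0 of replicate 1 allows up to 0.0760 TPM, and its interval, which ends at 0.0934 TPM, did not overlap that of replicate 2. The antisense gene Gm33460 shares 118 exonic bases with Eomes on the opposite strand. It had 0 reads in replicate 1 and 1 read in replicate 2, too few to show a difference between the libraries. The strand setting of the counting is not given, so reads of both genes cannot be told apart there.

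Of the basic helix-loop-helix factors, Mesp1 (ENSMUSG00000030544.5, chromosome 7, 79792241 to 79793788, minus strand) marks the earliest cardiac and cranial mesoderm. It was at 0.578 TPM in replicate 1, from 7 reads (0.232 to 1.19 TPM), and listed at 0 in replicate 2. Hand1 (ENSMUSG00000037335.13, chromosome 11, 57828705 to 57832818, minus strand), a factor of extraembryonic and lateral mesoderm and of the heart, was at 0.316 TPM in replicate 1, from 6 reads (0.116 to 0.688 TPM), and listed at 0 in replicate 2. Both were thus present in the deeper library only. The limits of a 0 in replicate 2, 0.704 TPM for Mesp1 and 0.449 TPM for Hand1, lie above the values of replicate 1, so a difference between the libraries was not detectable for either gene.

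Mixl1 (ENSMUSG00000026497.7, chromosome 1, 180693043 to 180697034, minus strand), which acts in the streak downstream of Nodal and BMP signals, was at 0.0459 TPM in replicate 1 and 0.130 TPM in replicate 2. Each value was 1 read. Replicate 2 exceeded replicate 1 by a ratio of 2.84 with a counting interval of 0.0362 to 223, so the libraries did not differ beyond counting error.

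Foxa2 (ENSMUSG00000037025.11, chromosome 2, 148042877 to 148046969, minus strand), a forkhead factor of definitive endoderm, node and floor plate, was listed at 0 TPM in replicate 1 and at 0.505 TPM in replicate 2, from 4 reads (0.138 to 1.29 TPM). Up to 0.133 TPM is allowed by the 0 of replicate 1. The value of replicate 2 lies above that limit. The interval of the 0 ends at 0.164 TPM and overlapped that of replicate 2, but such overlap does not show that the libraries were equal. Foxa2 and Eomes were thus seen only in the shallower library, opposite to Mesp1 and Hand1.

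Values of 0 in only 1 library were therefore found for 4 of the 7 factors, compared with 11.1% of all genes. Such splits were also found among other genes with few reads. Among the 1435 genes with 4 to 10 reads in both libraries together, 12.3% were at 0 in replicate 1 and 30.5% at 0 in replicate 2. Eomes, Foxa2, Mesp1 and Hand1 all fall in this range of reads.

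Gata6 was the highest of the 7 and the only one with more than 10 reads in either library. Gata6 encodes a GATA zinc finger factor of primitive endoderm, gut endoderm and heart (ENSMUSG00000005836.10, chromosome 18, 11052064 to 11085635, plus strand). It was at 1.32 TPM in replicate 1 and 0.656 TPM in replicate 2 (mean 0.986 ± 0.468, SD, n = 2). The annotated exonic length of 6508 bases gave 81.5 and 14.3 reads, which are not whole. The nearest length that made both whole was 6388 bases, with 80 reads (interval 1.04 to 1.64 TPM) and 14 reads (0.358 to 1.10 TPM). Replicate 1 exceeded replicate 2 by a ratio of 2.01 with a counting interval of 1.13 to 3.84. A difference of this size is common in the table: of 2940 genes with 50 to 150 reads in total and reads in both libraries, 24.6% differed at least 2-fold. The noncoding gene 1010001N08Rik, which shares 93 exonic bases with Gata6 on the opposite strand, was listed at 0 in both replicates.

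The order of mean levels was Gata6, Mesp1 (0.289 ± 0.408 TPM), Foxa2 (0.252 ± 0.357), Eomes (0.180 ± 0.255), Hand1 (0.158 ± 0.223), Mixl1 (0.0881 ± 0.0598) and T (listed at 0). No neighbours in this order differed by more than their spread from Mesp1 down to Mixl1. For Mesp1, Foxa2, Eomes and Hand1, 1 of 2 values was 0, which by arithmetic puts the SD above the mean. Gata6 exceeded Mesp1 in both libraries, but their intervals overlapped in replicate 1. It lay above the intervals of the other 5 factors there, whose upper bounds ran from 0.0934 TPM (Eomes) to 0.688 TPM (Hand1). In replicate 2 the interval of Gata6 overlapped those of all 6 other factors, of which T had the lowest upper bound at 0.477 TPM. Mixl1 and T were separated by 1 read in each library. With 2 libraries of 1 group there is no pattern across conditions, and no genes were sought for likeness to these.

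**Figure D2:**
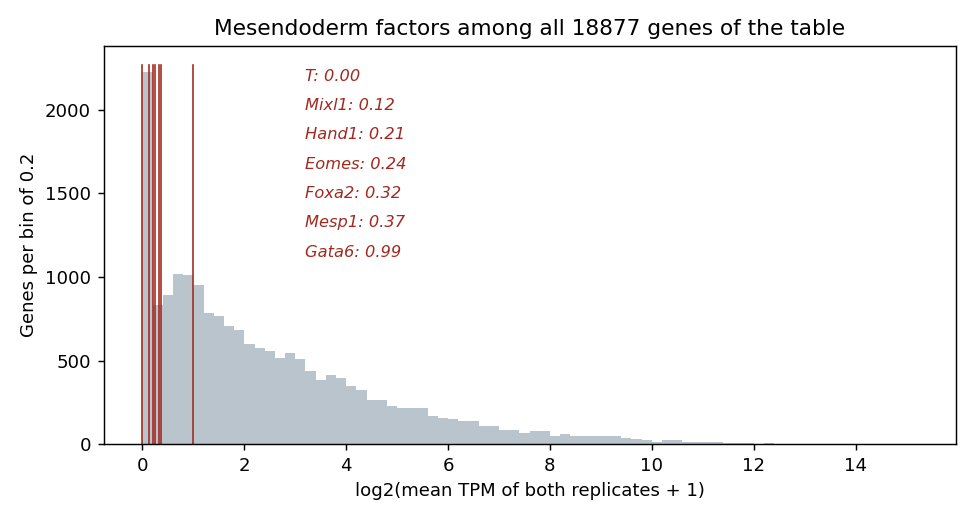
Histogram of log2(mean TPM + 1) for all 18877 genes in bins of 0.2 (grey), with a red line at each of the 7 factors and its value printed on the plot. All 7 lines lie at the left of the plot, below the median of all genes.

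Close relatives of the 7 were mostly low as well. Of 14 other T-box genes, 4 had a row. Mga, a T-box and helix-loop-helix protein that represses germ line genes in embryonic stem cells, was at 7.05 TPM in replicate 1 and 8.38 TPM in replicate 2. Tbx4, a factor of the hindlimb and allantois, was at 0.888 ± 0.0124 TPM, Tbx2 at 0.271 ± 0.15 TPM, and Tbx1 was listed at 0 in both replicates. Mga was the only T-box gene with a row that exceeded a TPM of 1.

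Among the GATA genes, Gata2, a factor of blood and trophoblast, was at 2.79 TPM in replicate 1 and 2.83 TPM in replicate 2 (143 and 51 reads), above Gata6 in both libraries. Gata3 was at 0.680 ± 0.102 TPM. Gata4, which is coexpressed with Gata6 in endoderm and heart, was at 0.269 TPM (10 reads) and 0.0766 TPM (1 read). Gata6 was thus above Gata4 in both libraries. The Snail genes Snai2, a factor of neural crest and mesoderm, and Snai3 were at 1.07 ± 1.21 and 0.971 ± 0.186 TPM. Snai2 had 4 reads in replicate 1 and 13 in the shallower replicate 2. Foxa1 was listed at 0 in both, while Mesp2 and Sox18 had 1 read each in replicate 1 and none in replicate 2.

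Stretches of sequence from T, Eomes and Mesp1 before or at the start sites were read from RefSeq (GRCm38.p6). They show how the promoters of both measured T-box factors compare, and where a gene downstream of Eomes carries a T-box half-site. RefSeq windows, which run from 250 bases before to 50 after a start site, were given for 6 of the 10 factors (Foxa2 with 3), 8 windows in all, and none for Mixl1, Gata6, Sox17 and Hand1 was used here. Letters searched on both strands were the TATA box TATAAA, the sequence CCAAT, the GC box GGGCGG, the E-box CACGTG, a further E-box CAGCTG, and the T-box half-site AGGTGTGA. Capitals mark these matches. The windows of T and Eomes are printed up to the base before the start, and of Mesp1 only 30 bases around its T-box half-site are shown.
T promoter, chr17:8434173-8434422, plus strand: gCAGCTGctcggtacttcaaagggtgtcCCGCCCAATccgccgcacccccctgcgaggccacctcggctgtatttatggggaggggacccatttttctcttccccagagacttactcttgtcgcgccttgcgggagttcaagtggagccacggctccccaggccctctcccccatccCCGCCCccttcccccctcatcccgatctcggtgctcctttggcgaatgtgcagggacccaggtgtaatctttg
Eomes promoter, chr9:118477939-118478188, plus strand: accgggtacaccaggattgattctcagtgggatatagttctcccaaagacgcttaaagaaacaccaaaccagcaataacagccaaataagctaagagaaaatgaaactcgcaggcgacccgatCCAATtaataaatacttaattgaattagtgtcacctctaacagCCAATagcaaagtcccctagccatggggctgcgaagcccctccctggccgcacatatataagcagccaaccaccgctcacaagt
Mesp1 site, chr7:79793567-79793596, minus strand: aggggcccgctTCACACCTagggctcagga

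The T stretch held a CAGCTG E-box, a CCAAT that overlaps a GC box on the other strand by 2 bases, and a further GC box. The Eomes stretch held 2 CCAAT matches and no GC box. In the 8 windows, CCAAT was found in 5 (37.4% of all 32851 promoters), GGGCGG in 4 (35.7%), TATAAA in 2 (13.6%), CAGCTG in 1 (16.3%) and CACGTG in 0 (7.15%). These counts include several windows of 1 gene. Every Foxa2 window held GGGCGG, and the only other was that of T. TATAAA was in a Foxa2 window and in that of Tbx6. The T-box half-site was found in 1, that of Mesp1, compared with 1.28% of all promoters. It lies just after the RefSeq start, within an exon of Mesp1 in GENCODE, which places the start of Mesp1 further upstream. A match describes the letters only. No binding or methylation was measured in this table.

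The nearest gene with a row on each side was also examined, at distances from 2349 to 957432 bases. Of the 14 nearest genes with a row, 8 reached a TPM of 1 in both replicates, near the 60% of all genes. Platr11, a noncoding gene 72113 bases from Eomes, was the highest at 103 ± 5.99 TPM. Sap30l, 18488 bases from Hand1, was at 18.5 ± 2.59 TPM, and Mib1 and Rbbp8, 233360 and 547641 bases from Gata6, were at 9.27 ± 1.5 and 14.4 ± 1.67 TPM. Lin9, 2349 bases from Mixl1, was at 2.13 ± 1.09 TPM, and Acbd3, 29009 bases away on its other side, at 7.52 ± 1.46 TPM. Golga4, 20135 bases from Eomes, was at 6.33 ± 0.117 TPM, and the pseudogene Gm12245, 115911 bases from Hand1, was at 3.59 ± 0.339 TPM.

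The neighbours of T, Mesp1 and Foxa2 were low. T2, a separate gene 10910 bases from T, was at 0.793 ± 0.644 TPM, and 1700010I14Rik, 545837 bases away, at 0.633 ± 0.895 TPM. Wdr93, 6291 bases from Mesp1, was at 0.253 ± 0.358 TPM and Mesp2, 16939 bases away, at 0.0271 ± 0.0383 TPM. The nearest genes with a row around Foxa2 were distant: Nkx2-4, at 957432 bases, was listed at 0 in both replicates, and Thbd, at 357497 bases, was at 0.625 ± 0.315 TPM.

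The signals that induce these factors in the embryo were measured next, from lists of ligands, of receptors and effectors, and of inhibitors. Of 9 ligands, 7 had a row and 3 reached a TPM of 1 in both replicates, against 60% of all genes. Nodal itself was at 0.502 TPM (10 reads) in replicate 1 and 0.714 TPM (5 reads) in replicate 2. The Nodal-related ligand Gdf3 was highest at 15.8 and 9.63 TPM, and Gdf1, a partner of Nodal, was at 2.56 ± 1.08 TPM. Bmp4, which specifies both PGCs and posterior mesoderm, was at 5.43 TPM (116 reads) and 1.46 TPM (11 reads). Wnt3, which is needed for the streak to form, was at 1.04 ± 0.596 TPM, and Bmp2 and Fgf4 were listed at 0 in both.

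Receptors and effectors stood higher than ligands. All 17 had a row, and 16 reached a TPM of 1 in both replicates, against 60% of all genes. Ctnnb1, which encodes beta-catenin of the Wnt pathway and of cell junctions, was highest at 193 ± 9.85 TPM, followed by Smad4 (16.5 ± 1.97), Smad2 (14.2 ± 1.11) and the Nodal co-receptor Tdgf1 (13.8 ± 0.633 TPM). The lowest were Tcf7l1 (0.416 ± 0.0580 TPM), a repressor of Wnt targets, Smad3 (2.19 ± 0.870), Smad5 (2.52 ± 1.39) and the receptor Acvr1b (2.76 ± 1.65 TPM). The median on the log2(TPM + 1) scale was 2.77 ± 0.0667 for receptors and effectors and 0.99 ± 0.428 for ligands (SD, n = 2), on both sides of the 1.87 of all genes.

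The inhibitors were divided. Lefty2 and Lefty1, secreted antagonists of Nodal that Nodal signalling itself switches on, were at 18.3 ± 5.18 and 7.85 ± 3.57 TPM, with 364 and 89 reads in replicate 1 and 192 and 61 reads in replicate 2. Both were above every one of the 7 factors in each library. The Wnt antagonists Sfrp1 and Dkk1 were at 3.84 ± 1.47 and 0.890 ± 0.213 TPM. The BMP antagonists were at the bottom, with Chrd at 1 read in replicate 2 only and Nog listed at 0 in both. Of 7 inhibitors, 6 had a row and 3 reached a TPM of 1 in both replicates, against 60% of all genes.

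**Figure D3:**
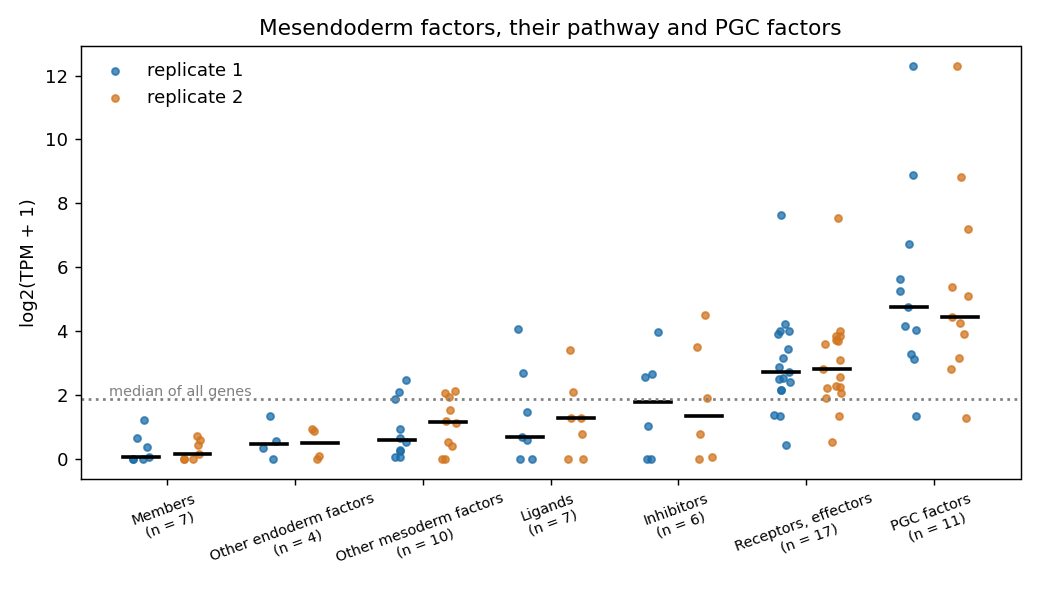
Level on the log2(TPM + 1) scale of each gene with a row in 7 lists, in replicate 1 (blue) and replicate 2 (orange). Black bars are list medians, which are 0.06 and 0.18 for the 7 factors (Members) and 4.77 and 4.46 for the PGC factors, and the dotted line is the median of all genes.

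Other mesoderm and endoderm factors were compared as lists of the same kind. Of 24 further mesoderm factors, 10 had a row. Compared with 60% of all genes, 3 of them reached a TPM of 1 in both replicates. These were Tcf15 (3.99 ± 0.890 TPM), a factor of somites that is also found in pluripotent cells, Lhx1 (3.07 ± 0.294 TPM), a factor of streak derivatives and intermediate mesoderm, and Zeb1 (2.94 ± 0.410 TPM), a repressor of epithelial genes. Twist1 followed at 1.10 ± 0.270 TPM. The lowest were Foxf1 and Mesp2 with 1 read each in replicate 1, Foxc1 (0.464 ± 0.00521 TPM) and Cdx1 (0.471 ± 0.183 TPM). Their medians on the log2(TPM + 1) scale were 0.62 and 1.17 in the respective replicates, or 0.89 ± 0.390 on average (SD, n = 2).

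Of 13 further endoderm factors, 4 had a row and 0 reached a TPM of 1 in both replicates, against 60% of all genes. Otx2, a factor of anterior endoderm and epiblast, was at 1.57 and 0.850 TPM, Hhex at 0.494 and 0.936 TPM, and Gata4 and Foxa1 are given above. The median was 0.48 ± 0.0252 (SD, n = 2). Both lists were below the median of all genes and above that of the 7 factors. No test was run on these differences, since there is 1 group and genes are not replicates.

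PGC factors of the same libraries gave the contrast. All 11 had a row and reached a TPM of 1 in both replicates, with a median of 4.62 ± 0.225 (SD, n = 2). The highest were Dppa3 at 5044 ± 44.1 TPM, the RNA-binding protein Nanos3 at 463 ± 14.3, Sox2 at 126 ± 28.8 and Sall4 at 44.8 ± 5.54 TPM. Prdm1, which encodes Blimp1, the repressor of the somatic programme in PGCs, was at 7.84 and 6.11 TPM. That was 5.95 and 9.32 times the level of Gata6 in the same library. Prdm14 and Kit, the other low members beside Pou5f1, were at 14.7 ± 0.922 and 8.40 ± 0.627 TPM. Pou5f1 was the lowest at 1.54 and 1.46 TPM, and its intervals (1.06 to 2.17 and 0.731 to 2.62 TPM) overlapped those of Gata6 in both libraries. All 7 housekeeping genes reached a TPM of 1 in both replicates, with a median of 8.81 ± 0.305. Eef1a1 (1952 ± 23.3 TPM), Ppia (985 ± 43.1), Rplp0 (830 ± 54.5) and Hprt (453 ± 95.1) were highest. Actb was at 105 ± 7.02, Gapdh at 12.4 ± 2.66 and Tbp at 7.75 ± 0.0724 TPM. Whether the counting lost reads of single genes such as Pou5f1 or Gapdh was not tested.

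Markers of other embryonic cells were also examined. For comparison, 60% of all genes reached a TPM of 1 in both replicates. Erythroid markers reached a TPM of 1 in both replicates in 6 of 7 genes with a row (of 9), with a summed level of 4002 TPM in replicate 1 and 3780 TPM in replicate 2. Heart muscle markers reached it in 1 of 4 (of 7, summed 10.7 and 13.5 TPM), endothelial markers in 1 of 6 (of 9, 13.0 and 11.0 TPM), mesenchyme markers in 1 of 5 (of 8, 2.37 and 3.95 TPM), gut endoderm markers in 4 of 6 (of 7, 16.8 and 18.0 TPM) and visceral endoderm markers in 1 of 4 (of 7, 3.40 and 9.23 TPM). Neural markers reached it in 3 of 3 (of 5, 6.41 and 7.05 TPM) and those of the coelomic and gonadal epithelium in 2 of 5 (3.91 and 3.99 TPM). Single genes held the largest part of some sums. Pecam1 was at 8.23 and 9.99 TPM in the endothelial list. There, Kdr was at 0.850 and 0.166 TPM, Emcn at 2.12 TPM and listed at 0, and Cdh5, Sox7 and Erg had no row. Myl7 was at 8.91 and 8.62 TPM in the heart muscle list, and Krt18 at 9.22 and 9.16 TPM in that of gut endoderm. The 7 factors summed to 2.26 and 1.65 TPM. Lum, of the mesenchyme list, and Foxa1, of the gut endoderm list, were listed at 0 in both replicates. Within the visceral endoderm list, Rbp4 was at 1.30 and 5.77 TPM in the respective replicates, and Afp was at 0.843 TPM (27 reads) in replicate 1 and listed at 0 in replicate 2. Its markers Apob, Ttr and Hnf4a had no row. The part of other cells in the values of the 7 factors was not tested.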

How the data were processed

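RNA-seq of E9.5 PGCs was analysed in 2 libraries of 1 group. The methods give 1 route: clean reads were mapped to mm10 with Hisat2, reads per gene were counted with featureCounts, and the authors deposited TPM per gene. The submitters' processing notes also name Bowtie2, RSEM, DESeq2 and R 3.4.2. Annotation, strand setting and treatment of multi-mapping reads are not given in the sources used here. The methods describe Smart-seq2 cDNA, whereas the labels name another library kit.

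Symbols were matched to GENCODE M21 (GRCm38, the assembly of mm10), which gave 1 gene for 18748 of 18877 symbols. TPM multiplied by exonic length fell on whole multiples of 1 amount per library, taken as 1 read. Among values under 50 reads, 96.7% and 95.8% were within 0.02 of a whole number. On simulated data for these 18748 genes, the recovery returned 100% of the read counts in both libraries. The simulation used the same lengths as the recovery. It therefore checks the arithmetic only, and not whether these lengths match those of the authors.

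Levels were analysed as log2(TPM + 1), which understates differences of low genes. With 1 group there was no test and no p-value. Ratios carry an exact binomial interval at 95%. The factors and lists were chosen with earlier results of these data known. All 10 factors were named. Of the other gene lists, all members with a row were named for lists of 10 or fewer, and the 4 highest and 4 lowest for longer lists. Genes overlapping a factor and the nearest on each side were named too, and marker lists were summarised. Alternatives were other thresholds, a pseudocount of 0.1, a filter at a mean TPM of 0.1, a rescaling and leaving out each replicate. Analyses used Python 3.11.15, numpy 2.4.6, pandas 2.3.3, scipy 1.17.1 and matplotlib 3.10.9.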

Additional observations from a re-analysis of the deposited data

How the results depend on the processing

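The count of factors that passed a threshold rested on Gata6. At a TPM of at least 0.5 it was 1 in both replicates and 1 by the mean, and at 2 or 5 it was 0. By the mean it ranged from 0 without replicate 1 to 1 without replicate 2. With both replicates kept, rescaling without genes under 200 bases and mitochondrial genes put the mean of Gata6 at 1.24 TPM. Gata6 thus passed a mean TPM of 1 under that setting. With a pseudocount of 0.1 the median of the 7 factors was -2.45 and its difference from all genes -3.91, and the medians of other mesoderm and endoderm factors were -0.12 and -1.19. When genes with a mean under 0.1 TPM were left out, the median of the factors was 0.42 and that of other endoderm factors 0.73. Rescaling without genes under 200 bases and mitochondrial genes gave -2.01 for the difference, 0.57 for endoderm factors and 4.93 for PGC factors. No direction reversed. With 2 replicates, leaving out either cannot move a mean by more than the SD, so it gives no check of stability. Depth limits the 6 factors with under 10 reads per library most. No paired analysis was possible because both samples belong to 1 group.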

Other observations

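Genes of adhesion and of the epithelial-mesenchymal transition, the step that Snai1 drives in the streak, were examined as a further list. Of 9 genes, 8 had a row and 6 reached a TPM of 1 in both replicates, against 60% of all genes. Epcam, an epithelial adhesion protein that PGCs also carry, was at 149 ± 15.7 TPM and Cdh1, which encodes E-cadherin, at 16.0 ± 2.85 TPM (SD, n = 2). Cdh2, which encodes N-cadherin, was lower at 1.49 ± 0.302 TPM. Fibronectin (Fn1) was at 29.8 ± 4.17 TPM and vimentin (Vim), the mesenchymal filament protein, at 27.7 ± 1.21 TPM. The transition factors Zeb1, Twist1 and Snai2, given in the report, were each below Cdh1 in both libraries.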
